A study of Gallus gallus with 10 samples.

Results

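The genes described here are those of vitamin D breakdown and of signalling by PTHLH (parathyroid hormone-like hormone) in the choroid of the chick eye, a layer of blood vessels and pigment cells behind the retina. Of 6 gene names looked for, 4 stood in the deposited table of 24355 genes, each in 1 row: CYP24A1 (ENSGALG00000042279), VDR (ENSGALG00000033090), PTHLH (ENSGALG00000017295) and CYP2R1 (ENSGALG00000006050). No row carried the name PTH1R or CYP27A1, so both are not analysed here. The genes were chosen by their FPKM in the same treated and control libraries, with the comparison below already known. Their differences between the groups are therefore given as a description, without a test, and nothing is drawn from them about how often such differences occur.

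Poly(A) RNA was sequenced from choroids of normal chicks (strain label Domesticus) at post-hatch day 15, as whole tissue homogenate, in 5 libraries with PAPA-NONOate and 5 control libraries. PAPA-NONOate, a small molecule that releases nitric oxide, was applied at 1.5 mM for 24 hours (37 °C, 5% CO2). The comparison addresses which choroidal transcripts respond to nitric oxide. The labels repeat that incubation text for the controls, which they call minus PAPA-NONOate, and do not say what the controls received instead. All treated samples carry the letter R and all controls the letter L with the same replicate numbers (2, 3, 4, 5 and 8), so whatever the letters stand for cannot be told apart from the treatment. Separate animals are not stated, so that errors measure the spread between these samples, which may be technical.

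Vitamin D becomes a hormone in hydroxylation steps: CYP2R1 and CYP27A1 are enzymes of the first, in which 25-hydroxyvitamin D is made, and CYP27B1 makes the active form. The active form binds VDR, a nuclear receptor that pairs with a retinoid X receptor on DNA, and CYP24A1, the mitochondrial enzyme that breaks the hormone down, is among the genes that VDR activates most strongly in vertebrates. PTHLH is a secreted relative of parathyroid hormone that acts close to where it is made, through the receptor PTH1R and cyclic AMP, and it relaxes vascular smooth muscle and holds back cartilage maturation.

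CYP24A1 and PTHLH stood at 25.9% and 27.9% of their mean control level in the treated choroids, while VDR stood at 73.8% and CYP2R1 at 102.6%. Values are FPKM, fragments per length of transcript, scaled to the size of the library. The CYP24A1 levels were 5.18, 6.10, 4.10, 10.1 and 4.83 FPKM in PAPA-NONOate replicates 2, 3, 4, 5 and 8, and 24.7, 17.8, 20.1, 25.4 and 28.8 FPKM in the control replicates of the same numbers. The groups did not overlap: the highest treated library, replicate 5, lay well below the lowest control, replicate 3. The means were 6.05 ± 2.35 against 23.4 ± 4.41 FPKM (SD, n = 5 per group), so that the treated mean was 25.9% of the control mean. The log2 difference was -1.91 (SE 0.21, 95% interval -2.37 to -1.45) on the log2(FPKM + 0.5) scale, a 3.75-fold lower level. Single treated libraries ran from 17.5% of the control mean in replicate 4 to 43.1% in replicate 5.

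PTHLH, the ligand, had levels of 7.22, 5.20, 2.84, 8.52 and 12.2 FPKM in PAPA-NONOate replicates 2, 3, 4, 5 and 8. In the controls of those numbers it was at 35.4, 21.2, 19.7, 25.0 and 27.5 FPKM. Again every treated library lay below every control, with replicate 8 the highest and replicate 4 the lowest of the treated ones. The means were 7.19 ± 3.52 against 25.8 ± 6.24 FPKM (SD, n = 5 per group), 27.9% of the control mean. The log2 difference was -1.88 (SE 0.30, 95% interval -2.52 to -1.23), and single treated libraries ran from 11.0% to 47.3% of the control mean. Relative to its mean PTHLH varied more between libraries than CYP24A1, with a coefficient of variation of 48.9% against 38.9% with PAPA-NONOate and of 24.2% against 18.9% in controls.

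VDR, the receptor, was at 3.78, 5.20, 6.60, 5.15 and 5.34 FPKM in PAPA-NONOate replicates 2, 3, 4, 5 and 8 and at 6.03, 5.78, 7.33, 5.41 and 10.8 FPKM in the controls of those numbers. The groups overlapped through PAPA-NONOate replicate 4, and control replicate 8 stood above all other libraries. The means were 5.21 against 7.06 FPKM (coefficients of variation 19.2% and 31.1%, n = 5 per group), with a log2 difference of -0.38 (SE 0.19, 95% interval -0.80 to 0.04). Without control replicate 8 the VDR difference was -0.23. CYP2R1, the 25-hydroxylase, was at 3.38, 4.72, 4.11, 4.87 and 3.88 FPKM with PAPA-NONOate and at 4.01, 3.71, 4.31, 4.34 and 4.08 FPKM in controls, in the same replicate order. Treated libraries lay on both sides of the controls, the log2 difference was 0.02 (SE 0.14, 95% interval -0.27 to 0.32), and the control coefficient of variation of 6.26% was the smallest of the 4 genes.

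**Figure D1:**
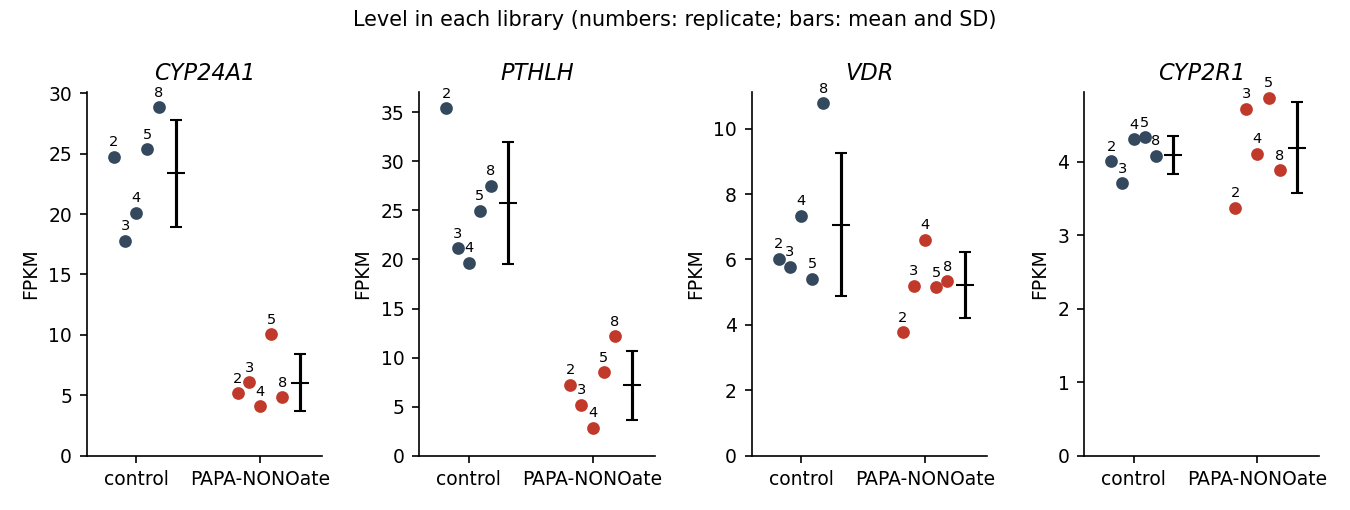
Level of each gene in each library, in FPKM, with the replicate number beside each point and the mean and SD as a bar (n = 5 per group). The treated libraries of CYP24A1 (4.10 to 10.1 FPKM) and PTHLH (2.84 to 12.2 FPKM) lie below all controls, whereas those of VDR and CYP2R1 overlap the controls.

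In controls PTHLH (25.8 FPKM) and CYP24A1 (23.4 FPKM) were the higher of the 4 genes and did not differ beyond their spread, followed by VDR (7.06 FPKM) and CYP2R1 (4.09 FPKM). With PAPA-NONOate the 4 means lay between 4.19 and 7.19 FPKM and neighbours in the order PTHLH, CYP24A1, VDR, CYP2R1 overlapped. A total of 11357 genes reached 1 FPKM in 5 or more libraries and were tested together. Among them the level of CYP24A1 stood at percentile 69.3 in controls and 36.1 in treated choroids. For PTHLH these percentiles were 71.9 and 40.5, for VDR 35.6 and 32.4. Within a library CYP24A1 was 3.46 ± 0.897 times the level of VDR in controls and 1.20 ± 0.505 times with PAPA-NONOate (SD, n = 5 per group). The lowest control ratio, 2.68 in replicate 8, exceeded the highest treated one, 1.95 in replicate 5. The ratio of PTHLH to CYP24A1 was 1.11 ± 0.204 in controls and 1.26 ± 0.753 with PAPA-NONOate, and ran up to 2.52 in PAPA-NONOate replicate 8, where PTHLH was highest and CYP24A1 was near the bottom of its group.

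All 4 genes passed the filter on low values. In the limma fit over all tested genes, with a threshold of 0.05 on the Benjamini-Hochberg adjusted p, 9.34% of genes were called, 7.41% lower and 1.93% higher. CYP24A1 and PTHLH lay among those called lower. This only places them in the table and is no test of them, since they were chosen by these values. Groups without overlap and with the treated one lower were found for 7.48% of tested genes, with the treated one higher for 1.84%, and in either direction for 9.32%. Ordered from the largest fall, CYP24A1 was number 47 and PTHLH number 52 of 11357. In all 219 genes were called higher and 842 lower, which became 790 and 749 after median-ratio scaling and 733 and 680 after quantile normalization. The median gene had a log2 difference of -0.18, which these scalings moved to 0.00 and 0.01, and relative to it the differences were -1.73 for CYP24A1, -1.70 for PTHLH, -0.20 for VDR and 0.20 for CYP2R1. Over 22 other settings the CYP24A1 difference ran from -2.11 to -1.71 and that of PTHLH from -2.09 to -1.61.

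**Figure D2:**
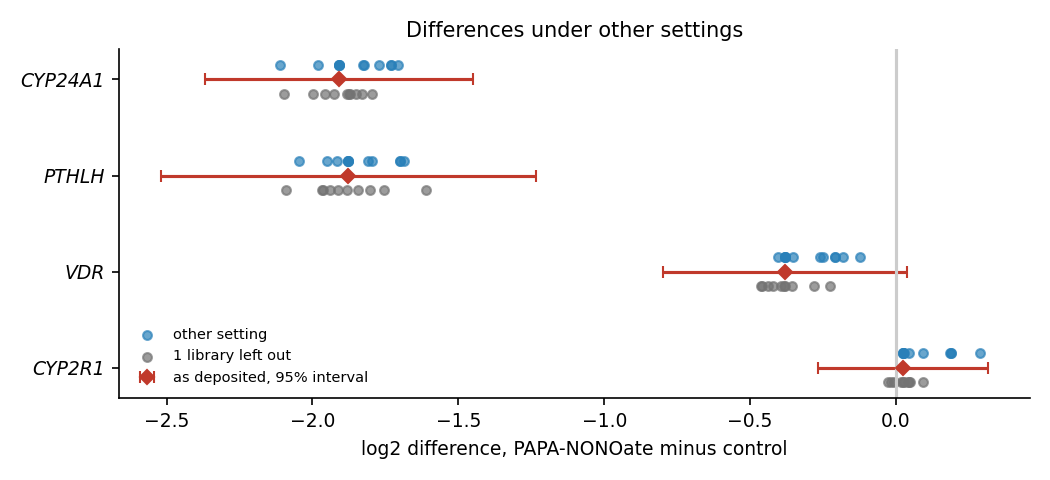
Log2 difference (PAPA-NONOate minus control) of the 4 genes as deposited with its 95% interval (red), with 1 library left out (grey) and under the other settings (blue). CYP24A1 and PTHLH stay between -2.11 and -1.61, VDR between -0.46 and -0.12, and CYP2R1 lies on both sides of 0.

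The libraries differed in ways that touch these values. The absolute depth is unknown, and steps between low FPKM put the relative depth at 0.645 to 0.915 with PAPA-NONOate and 0.665 to 1 in controls (control replicate 2 set to 1). PAPA-NONOate replicate 2 lay farthest out on the first principal component (65.2, where the component holds 44.6% of the variance). PAPA-NONOate replicate 5, which had the highest treated CYP24A1, was the treated library nearest to the controls, next to control replicate 5 at -11.3. Without both of these treated libraries the log2 differences were -2.11 for CYP24A1 and -2.05 for PTHLH, an alternative chosen after the data were seen.

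Because whole tissue was sequenced, fewer cells of a type and less RNA per cell cannot be told apart. Markers of endothelium (300.2 to 467.8 summed FPKM with PAPA-NONOate, 370.3 to 490.7 in controls) and of smooth muscle and pericytes (83.2 to 207.5 against 146 to 224.6) were present in every library, and markers of the retina summed to at most 1.76 FPKM. Fibroblast markers summed to 298 to 1079 FPKM with PAPA-NONOate against 986 to 1943 in controls, and 3 of 7 tested members fell: LUM (log2 difference -1.84), DCN (-1.14) and COL3A1 (-1.57), with adjusted p-values of 0.00563, 0.0109 and 0.0325. Macrophage markers summed to 145 to 409 against 419 to 721 FPKM without overlap, and 3 of 7 fell, C1QB (-1.48, adjusted p = 0.0126), MARCO (-1.19, adjusted p = 0.0221) and C1QA (-1.08, adjusted p = 0.0397). All 7 fibroblast and 6 of 7 macrophage differences were negative (74.1% over all tested genes), with medians of -1.14 and -1.07. Of 7 melanocyte markers (39.3 to 213.9 against 52.6 to 497 summed FPKM) none was called, and their median log2 difference was -1.16. Cartilage and bone markers summed to 1.48 to 3.03 against 1.73 to 3.69 FPKM, with COL2A1 as the single tested member (-0.33, adjusted p = 0.401). Red cell globins and related markers summed to 1126 to 2122 against 475 to 2740 FPKM with none of 4 called. Their median log2 difference was 0.90 and no difference was negative. No marker found in the table was at 0 in every library. For comparison, 7.41% of all tested genes were called lower and 1.93% higher, and their median log2 difference was -0.18. The part of these marker shifts in the lower CYP24A1 and PTHLH was not tested.

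Of 6 tested endothelial markers TEK fell (-0.89, adjusted p = 0.0404) and 5 were not called, with 3 of the 6 differences negative. Over all tested genes 7.41% were called lower and 74.1% of the differences were negative. Of 7 tested smooth muscle and pericyte markers 3 had a negative difference and the median was 0.19. In that list pericyte RGS5 fell (-1.67, adjusted p = 0.0419), and CNN1 was called higher, but it passed the filter through the treated libraries alone (1.53 to 5.82 FPKM, against 0.448 to 0.787 in controls) and could be tested in 14 of 22 other settings. Of 2 tested markers of the retinal pigment epithelium (whole list 3.74 to 4.63 against 5.35 to 6.02 summed FPKM) the retinoid acyltransferase gene LRAT fell (-0.96, adjusted p = 0.0224), and RDH5 was not called (0.14, adjusted p = 0.777). LRAT lay near the floor, at 0.552 to 1.08 FPKM with PAPA-NONOate and 1.11 to 2.89 FPKM in controls, and passed the filter through the controls. COL3A1 lost its call without control replicate 2, 3, 5 or 8 or PAPA-NONOate replicate 2, 3, 4 or 8 (adjusted p up to 0.0943). C1QA lost it without control replicate 2, 3, 5 or 8 or PAPA-NONOate replicate 2, 3 or 8 (up to 0.0880), and MARCO without control replicate 4 or 8 or PAPA-NONOate replicate 3 (up to 0.0611). TEK lost it without control replicate 2, 4, 5 or 8 or PAPA-NONOate replicate 2, 3 or 8 (up to 0.0930), RGS5 without any control replicate or PAPA-NONOate replicate 3 or 8 (up to 0.101), and LRAT without control replicate 2 or 8 or PAPA-NONOate replicate 4 or 8 (up to 0.0646) and after quantile normalization (0.0602). Without the filter COL3A1 (0.0821), C1QA (0.0892), MARCO (0.0580), TEK (0.0755) and RGS5 (0.0974) also lost their calls. The TEK call was lost after quantile normalization (0.0797) and at a pseudocount of 0.1 (0.0541) as well.

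The other genes of vitamin D metabolism and transport did not pass in either direction. Of 18 symbols 14 were found and 8 tested, and none was called higher or lower. Over all tested genes 9.34% were called, so this count is no result about the list. The median log2 difference of the 8 was 0.08, against -0.18 over all tested genes. The smallest adjusted p-values belonged to DHCR7, which uses up the vitamin D precursor 7-dehydrocholesterol in cholesterol synthesis, at 14.5 ± 4.30 against 10.05 ± 2.46 FPKM (log2 difference 0.49, adjusted p = 0.156), and to the ferredoxin reductase gene FDXR, which feeds electrons to mitochondrial P450 enzymes (-0.36, adjusted p = 0.193). DHCR7 passed after median-ratio scaling (adjusted p = 0.0251), after quantile normalization (0.0234) or with library weights (0.0318). FDX1, the ferredoxin that passes electrons to CYP24A1, had a log2 difference of -0.19 (adjusted p = 0.440). GC, the vitamin D binding protein of plasma, was listed at 0 in 7 of 10 libraries and reached at most 0.0464 FPKM. No row carried the name CYP27B1, so the activating step is not analysed here.

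CYP24A1 was the fourth of 42 named cytochrome P450 genes by mean control level and ranked 8 with PAPA-NONOate. This gene group was added after the data were seen. Of its 21 tested members 2 were called higher and 2 lower, beside 1.93% higher and 7.41% lower among all tested genes. CYP24A1, chosen by these values, was 1 of the 2 called lower and had the most negative log2 difference. The other call downward was the steroid 17-hydroxylase gene CYP17A1, at 0.845 ± 0.470 against 2.93 ± 1.03 FPKM with overlap (SD, n = 5 per group; log2 difference -1.36, adjusted p = 0.0106). CYP17A1 passed the filter through the controls (1.51 to 3.96 FPKM, against 0.439 to 1.55 FPKM with PAPA-NONOate), so its call is not counted as support. The sterol demethylase gene CYP51A1 rose (1.26, adjusted p = 0.0218), but not without control replicate 2 (adjusted p = 0.0621) or without the filter (0.0578). The other gene called higher, the aryl hydrocarbon receptor target CYP1A1, was at 1.60 to 6.46 FPKM with PAPA-NONOate and at 0.0144 to 0.482 FPKM in controls. It passed the filter on low values through the treated libraries alone and could be tested in 14 of 22 other settings, so its call is not counted as support. The most abundant members, CYP1C1 and CYP1B1, had log2 differences of -0.73 (adjusted p = 0.173) and -0.10 (adjusted p = 0.735).

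**Figure D3:**
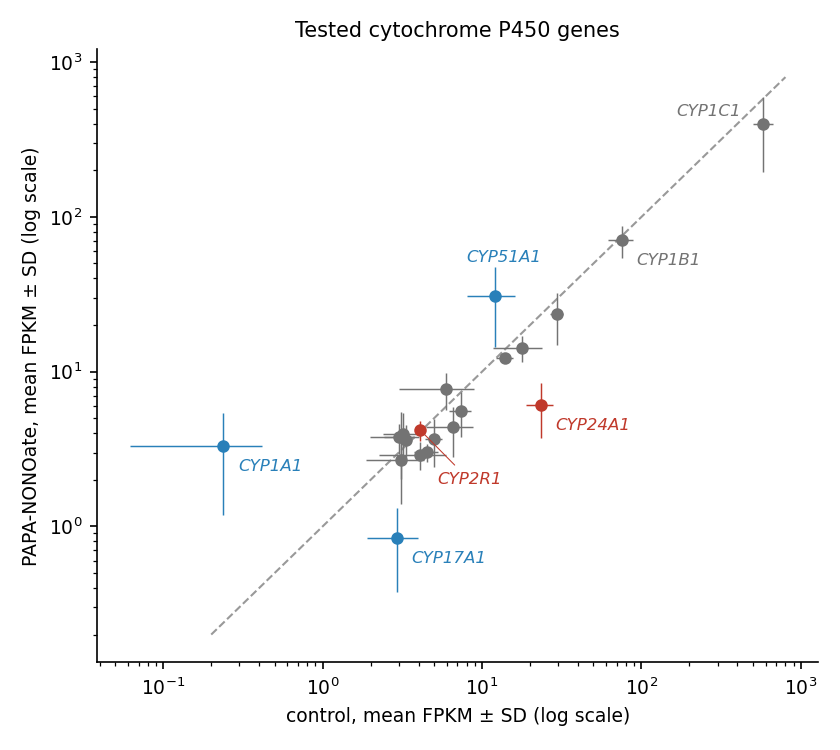
Mean FPKM with PAPA-NONOate against mean FPKM in controls for the 21 tested cytochrome P450 genes, both on log scales, with SD bars (n = 5 per group) and a dashed line of equal levels. CYP24A1 (6.05 FPKM with PAPA-NONOate against 23.4 FPKM in controls) lies below the line and CYP2R1 on it. The other genes called in the fit over all genes are in blue.

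Most partners of VDR were not called. Of 13 tested members of the list of partners and coregulators 1 was called lower, 12 were not called and the median log2 difference was -0.12. Over all tested genes 7.41% were called lower and the median was -0.18. The count is near that share and is no result about the list. Of the 13 differences 12 were negative, as were 74.1% of those over all tested genes. RXRA and RXRG, which form the DNA-binding pair with VDR, were at 12.7 ± 5.20 against 12.8 ± 2.64 FPKM and at 8.47 ± 2.81 against 8.42 ± 1.54 FPKM (SD, n = 5 per group). Their log2 differences were -0.08 (SE 0.27, adjusted p = 0.871) and -0.04 (SE 0.23, adjusted p = 0.921), and in both genes the lowest treated library was replicate 2. The member called was the nuclear receptor coactivator gene NCOA3, at 3.47 ± 0.701 against 6.12 ± 1.52 FPKM (SD, n = 5 per group; log2 difference -0.72, adjusted p = 0.0309). It lost its call after median-ratio scaling (0.0718), after quantile normalization (0.114), without the filter, and without control replicate 2, 4 or 5 or PAPA-NONOate replicate 3 or 4 (adjusted p up to 0.0852).

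Genes known as vitamin D targets in other tissues, mostly of human and mouse, moved both ways. Of 16 tested members 2 rose, 3 fell and 11 did not pass, with a median log2 difference of -0.26, beside 1.93% higher and 7.41% lower among all tested genes. After median-ratio scaling 2 rose and 1 fell, and after quantile normalization 3 rose and 2 fell. HBEGF, an EGF-family growth factor, was at 97.0, 94.2, 105, 75.7 and 116 FPKM in PAPA-NONOate replicates 2, 3, 4, 5 and 8 and at 40.8, 40.8, 46.7, 39.5 and 56.9 FPKM in controls. All treated libraries stood above all controls, with a log2 difference of 1.11 (SE 0.14, adjusted p = 0.000828). CDKN1A, the cell cycle inhibitor, also rose (0.84, adjusted p = 0.0186), except without control replicate 8 (adjusted p = 0.0518). SPP1, osteopontin, was at 98.4 ± 53.2 against 249.1 ± 83.5 FPKM (SD, n = 5 per group; log2 difference -1.44, adjusted p = 0.0255), and the groups overlapped through PAPA-NONOate replicate 5. It lost its call without the filter (0.0689) and without control replicate 2, 3 or 4 or PAPA-NONOate replicate 8 (adjusted p up to 0.0770).

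G0S2, an inhibitor of lipolysis, fell (log2 difference -1.29, adjusted p = 0.0245), as did CLMN, calmin (-0.76, adjusted p = 0.0459). G0S2 was not called without control replicate 2, 4 or 5 or PAPA-NONOate replicate 4 (adjusted p up to 0.0615), without the filter (0.0637) or after median-ratio scaling (0.0547). CLMN held its call without PAPA-NONOate replicate 5 and lost it without any other library (adjusted p up to 0.118), without the filter, with the filter at 5 FPKM, and after either scaling. The calcium-handling targets gave little signal: CALB1, the calcium buffer calbindin, was below the filter at 0.0477 to 1.89 FPKM with PAPA-NONOate and 0.0106 to 1.02 FPKM in controls. ATP2B1, the plasma membrane calcium pump, had a log2 difference of -0.28 (adjusted p = 0.176). No row carried the name TRPV6.

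On the PTHLH side the ligand PTH was below the filter on low values, and no row carried the name PTH2. PTH was at 0.979, 0.214, 0.226, 0 and 0.0404 FPKM in PAPA-NONOate replicates 2, 3, 4, 5 and 8 and at 0 to 0.439 FPKM in controls. PTH2R was listed at 0 in 8 libraries and reached at most 0.0527 FPKM. The RefSeq table for another assembly (GRCg7b) lists PTH1R as a synonym of its gene PTH2R. Which receptor the row named PTH2R stands for is therefore uncertain.

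The list of accessory proteins, processing enzymes and other hormones changed in both directions: of 13 tested members 2 rose, 4 fell and 7 did not pass, with a median log2 difference of -0.52. Those called were RAMP1, RAMP2, RAMP3, STC1, STC2 and PCSK1. None of these is a ligand of the PTH family or a receptor for one. Of the 2 that rose, PCSK1 passed the filter through the treated libraries and STC2 lost its call in 15 of 22 other settings. Neither rise is counted as support. Over all tested genes 1.93% rose, 7.41% fell and the median was -0.18. The 3 receptor activity-modifying proteins, which attach to CALCRL (and of which RAMP2 in mammals also binds PTH1R), all fell. RAMP3 was at 6.06, 7.76, 8.11, 9.30 and 11.1 FPKM in PAPA-NONOate replicates 2, 3, 4, 5 and 8 and at 14.8, 13.5, 13.5, 14.3 and 23.9 FPKM in controls. Its groups did not overlap, and the log2 difference was -0.87 (SE 0.19, adjusted p = 0.0130). RAMP2, at 11.6 ± 4.15 against 21.9 ± 3.25 FPKM, had a log2 difference of -0.95 (adjusted p = 0.0221), and RAMP1, at 1.66 ± 0.422 against 3.58 ± 1.17 FPKM, of -0.90 (adjusted p = 0.0252; SD, n = 5 per group). Neither overlapped between the groups. RAMP2 lost its call without the filter (0.0544) and without control replicate 2, 4 or 8 (adjusted p up to 0.0610). RAMP1 lost it without control replicate 2, 3 or 8 or PAPA-NONOate replicate 8 (up to 0.0690), without the filter (0.0593) and after quantile normalization (0.0598). CALCRL, the receptor that the RAMP proteins carry to the membrane, was at 10.01 ± 1.54 against 10.1 ± 1.64 FPKM (SD, n = 5 per group; log2 difference -0.02, adjusted p = 0.955).

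The stanniocalcins, secreted regulators of calcium and phosphate first known from fish, went apart. STC1 was at 51.2, 67.8, 40.6, 73.3 and 73.0 FPKM in PAPA-NONOate replicates 2, 3, 4, 5 and 8 and at 173, 87.5, 95.1, 122 and 133 FPKM in controls. It fell without overlap, by a log2 difference of -0.99 (SE 0.21, adjusted p = 0.0130). STC2 was at 22.9 ± 4.32 against 13.5 ± 4.41 FPKM (SD, n = 5 per group), higher by 0.79 (adjusted p = 0.0483). That call was lost without the filter, with the filter at 5 FPKM, at a pseudocount of 0.1, without the trend, and when any library but control replicate 2 was left out (adjusted p up to 0.105). PCSK1, a protease that cleaves prohormones, was at 2.75 ± 0.359 against 0.927 ± 0.243 FPKM (SD, n = 5 per group) without overlap, a log2 difference of 1.20 (SE 0.18, adjusted p = 0.00199). Its controls, at 0.703 to 1.27 FPKM, lay around the filter of 1 FPKM. It passed that filter through the treated libraries (2.31 to 3.13 FPKM), so its call is not counted as support. FURIN, the broadly expressed member of that protease family, had a log2 difference of -0.32 (adjusted p = 0.235).

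**Figure D4:**
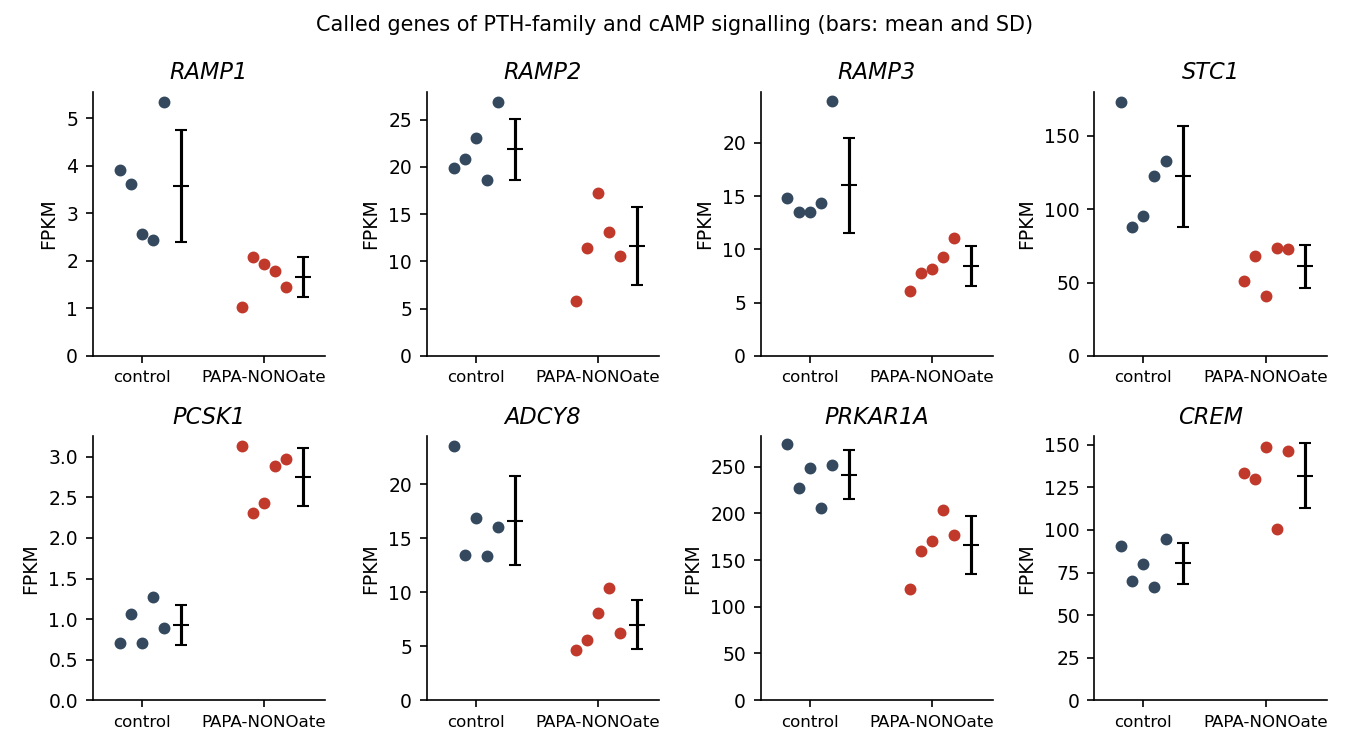
Level in each library, in FPKM, of 8 genes called in the fit over all genes, with mean and SD (n = 5 per group). They are a choice from the lists of hormone accessory and processing proteins, PTH1R signal transduction and cyclic AMP-responsive genes. None is a ligand of the PTH family or a receptor for one. STC2 and NR4A2, whose groups overlapped, and NR4A1, NR4A3 and FOS were also called and are not shown. RAMP1, RAMP2, RAMP3, STC1, ADCY8 and PRKAR1A are lower and PCSK1 and CREM higher with PAPA-NONOate, without overlap of the groups. The 8 were chosen among called genes, so this lack of overlap is no result about them. Groups did not overlap for 9.32% of all tested genes. PCSK1 passed the filter on low values through the treated libraries.

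Of 29 tested genes that carry the signal of PTH1R and of many other receptors inside the cell, 2 fell, none rose and 27 did not pass, where 7.41% of all tested genes fell and 1.93% rose. The count is near that share and is no result about the list. Its median log2 difference was -0.21, close to that of all tested genes. After median-ratio scaling 3 rose and 3 fell, and after quantile normalization 4 rose and 3 fell. ADCY8, an adenylyl cyclase stimulated by calcium, was at 4.62, 5.61, 8.11, 10.4 and 6.23 FPKM in PAPA-NONOate replicates 2, 3, 4, 5 and 8 and at 23.5, 13.4, 16.9, 13.4 and 16.002 FPKM in controls. The groups did not overlap, with a log2 difference of -1.21 (SE 0.21, adjusted p = 0.00433). PRKAR1A, a regulatory subunit of protein kinase A, was at 165.9 ± 30.9 against 241.6 ± 26.4 FPKM (SD, n = 5 per group; log2 difference -0.56, adjusted p = 0.0367). Its call was lost without control replicate 2, 3, 4 or 8 or PAPA-NONOate replicate 3, 4 or 8 (adjusted p up to 0.101) and without the filter (0.0607).

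Genes that respond to cyclic AMP, and to many other stimuli, were higher where they changed. The list was chosen with earlier results of these data known, so its counts are no test of the cyclic AMP response. Of 13 tested members 5 rose, none fell and 8 did not pass, with a median log2 difference of 0.40 (over all tested genes, 1.93% rose, 7.41% fell and the median was -0.18). CREM, a transcription factor of the cyclic AMP response that also encodes repressor forms, was at 133, 130.1, 149, 100.7 and 146 FPKM in PAPA-NONOate replicates 2, 3, 4, 5 and 8. Its control levels were 90.3, 70.2, 80.04, 66.6 and 94.5 FPKM. All treated libraries exceeded all controls, by a log2 difference of 0.71 (SE 0.14, adjusted p = 0.00952). The nuclear receptor genes NR4A3 (1.92, adjusted p = 3.79e-05) and NR4A1 (0.82, adjusted p = 0.00823) and the early gene FOS (55.6 against 27.4 FPKM, adjusted p = 0.00280) rose too. The remaining one, NR4A2, was outside the naming rule and was added after its value was seen (0.74, adjusted p = 0.0186, lost without control replicate 2 or 3, up to 0.0564). SIK1, a kinase induced by cyclic AMP, had a log2 difference of 0.40 (adjusted p = 0.105) and passed after median-ratio scaling (0.0195) or quantile normalization (0.0323).

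None of the 16 tested hedgehog and TGF-beta genes, pathways that set PTHLH levels in growth plate and tumour cells of other species, was called. Their median log2 difference was -0.30, against -0.18 over all tested genes, of which 9.34% were called. TGFB1 was at 46.5 ± 6.07 against 62.3 ± 11.3 FPKM (SD, n = 5 per group; log2 difference -0.41, adjusted p = 0.0930), and the hedgehog transducer SMO at 36.4 ± 7.63 against 49.4 ± 7.47 FPKM (-0.45, adjusted p = 0.107). Both passed after quantile normalization (0.0296 and 0.0266). None of 8 tested phosphate and mineral genes was called either, with a median of -0.32, while 2 were called higher after either scaling. Beside the share of all tested genes called, neither count is a result about its list. The calcification inhibitor MGP was at 153.7 ± 90.9 against 298.7 ± 42.7 FPKM (SD, n = 5 per group; log2 difference -1.20, adjusted p = 0.0646). It passed without PAPA-NONOate replicate 5 (0.0169) and with library weights (0.0264). The phosphate transporter gene SLC20A2 had a log2 difference of -0.42 (adjusted p = 0.0829).

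**Figure D5:**
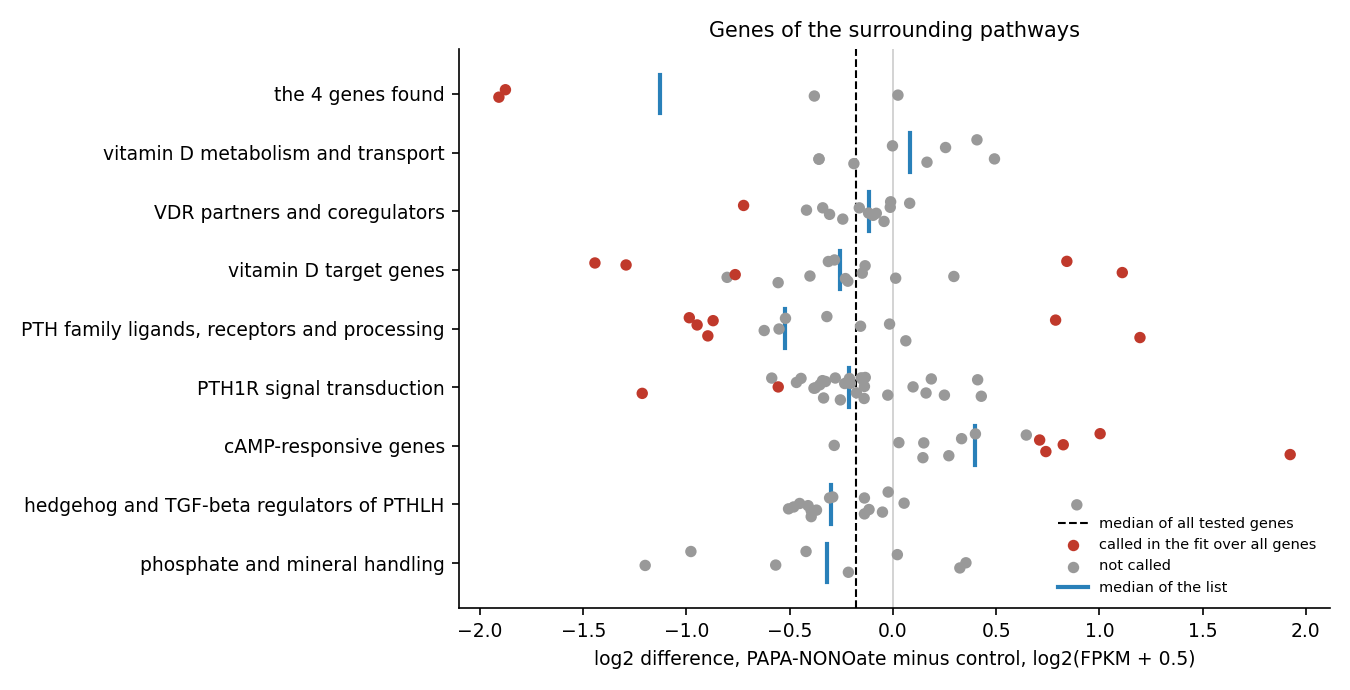
Log2 difference (PAPA-NONOate minus control, on the log2(FPKM + 0.5) scale) of each tested gene, for the 4 genes found and the 8 pathway lists. Red points were called in the fit over all genes, blue bars are list medians, and the dashed line is the median of all tested genes at -0.18.

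The deposited rows carry no positions. In the RefSeq gene order of GRCg7b the 3 nearest protein-coding genes with a named row on each side were looked up, a step added after the data were seen. Beside CYP24A1 4 of 6 were tested and none was called, with log2 differences from -0.41 for DOK5 to -0.15 for PFDN4, the nearest of them on one side. Beside PTHLH 5 of 6 were tested and 1 was called. This was the fatty acyl reductase gene FAR2 (-0.74, adjusted p = 0.0432), while the adjacent KLHL42 (0.02) and CCDC91 (-0.25) were not called. FAR2 kept its call without PAPA-NONOate replicate 3 or 5 and lost it without any other library (adjusted p up to 0.114), without the filter (0.0880) and after quantile normalization (0.0852). Beside VDR and CYP2R1, 5 of 6 genes each were tested and none was called. Over all tested genes 9.34% were called, so these counts are no result about the neighbours.

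Likeness between libraries of a group was described by the Pearson r of log2 values after the group means had been removed, over 10 libraries that share these means, and by its rank among 9329 other tested genes with a symbol. CYP24A1 was most like LPAR1 (r = 0.95), a lysophosphatidic acid receptor, followed by RFXANK (0.90), PRMT8 (0.90), COMMD5 (0.89) and SLC2A10 (0.89). Among the genes most like PTHLH were ST6GALNAC2 (0.96), CHL1 (0.94), GPM6B (0.94) and APLF (0.93), and VDR was most like PHETA1 (0.98), TAF12 (0.97), ACOT7 (0.96), SERP1 (0.95) and DPH2 (0.95). High values are found among so many genes over 10 points, and they are given only to place each profile. Between members r was 0.44 for CYP24A1 and PTHLH, 0.10 for CYP24A1 and VDR, and -0.24 for PTHLH and VDR. With CYP2R1 it was 0.61 for CYP24A1, 0.29 for VDR and -0.11 for PTHLH. The genes most like each member were picked for the highest r, so that values between members lie below theirs follows from that choice. How far below does not follow from it. For CYP24A1 the ranks were 718 for CYP2R1, 2286 for PTHLH and 6540 for VDR. For PTHLH they were 1374 for CYP24A1, 7082 for CYP2R1 and 8039 for VDR. For VDR they were 5262 for CYP2R1, 6658 for CYP24A1 and 8303 for PTHLH. Of the genes named here for their likeness only RFXANK, a regulator of MHC class II genes, was itself called between the groups (log2 difference -0.73, adjusted p = 0.00691). With 1 library left out, LPAR1 (0.0274) and SLC2A10 (0.0117) were also called without PAPA-NONOate replicate 5, CHL1 (0.0134) without replicate 4 and GPM6B (0.0319) without replicate 8.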

How the data were processed

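Libraries were made from poly(A)-selected RNA, per the labels' protocols. The deposited values are FPKM in 1 table, for which Cufflinks and SAMtools and the build GRCg6a are named in the submitters' processing notes. For versions, aligner and annotation: not given in the sources used here. In all, 14 values of 10 genes at 999999999 were read as failed estimates. Genes with such a value or with an FPKM of 1 or more in fewer than 5 libraries were not tested, which left 11357. FPKM give no absolute depth, so no counting intervals are given.

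Groups were compared with limma 3.58.1 (R 4.3.3) on log2(FPKM + 0.5), with a mean-variance trend, 8 residual and 4.83 prior degrees of freedom, two-sided, and Benjamini-Hochberg adjustment over all tested genes (threshold 0.05). The fit was tested on simulated data. The fold scale understates changes of weakly expressed genes. Members, gene lists and alternatives were chosen with earlier results of these data known. Named genes were the members, from each pathway list up to 4 called genes per direction by adjusted p (or, where none was called, the 2 smallest), called markers, the 5 genes most like CYP24A1, PTHLH and VDR, and CYP27B1, GC, RXRA, RXRB, RXRG, PTH, PTH2R, CREM, SIK1, TRPV6 and CALB1 whatever their values. CYP27B1, RXRB and TRPV6 matched no row, and 1 gene under the rule is not reported here. Genes given outside this rule, for background or after their values were seen, are FDX1, ATP2B1, CALCRL, FURIN, NR4A2, the markers RDH5 and COL2A1, the neighbouring genes and the cytochrome P450 genes. The fit was repeated with each library left out, with replicate number as blocking factor, with estimated weights per library, and without the trend. Values were also scaled by median ratios or quantile-normalized, the pseudocount set to 0.1 or 1, and the filter dropped or raised to 5 FPKM. After the data were seen, 2 more were added: median-ratio scaling without PAPA-NONOate replicate 2, and leaving out PAPA-NONOate replicates 2 and 5 together. No sequences are shown because none were given in the files used here.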

Additional observations from a re-analysis of the deposited data

Results flagged for a closer look

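In the following cases 1 library of 5 stood apart from the others of its group by Dixon's criterion at the 95% level, which chance alone meets in about 1 of 20 groups. None was CYP24A1, PTHLH, VDR or CYP2R1.

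Control replicate 8 was high for RAMP3 (23.9 FPKM, the other controls at 13.5 to 14.8), for NR4A2 (23.6 FPKM, others up to 16.02), for the macrophage gene C1QB (128.2 FPKM, others up to 62.1) and for the summed macrophage markers (721 FPKM, others 419 to 461). Control replicate 2 was high for the summed fibroblast markers (1943 FPKM, others 986 to 1257). PAPA-NONOate replicate 2 was low for TGFB1 (35.8 FPKM, others 47.7 to 50.1) and SERP1 (60.6 FPKM, others 76.9 to 82.3) and high for PTH (0.979 FPKM, others up to 0.226). PAPA-NONOate replicate 5 was high for CLMN (5.67 FPKM, others 2.68 to 3.46), and PAPA-NONOate replicate 4 for CYP51A1 (59.9 FPKM, others 17.9 to 27.2). GC was listed above 0 among controls in replicate 3 alone (0.0464 FPKM). PTH2R was listed above 0 in 1 library of each group, PAPA-NONOate replicate 3 (0.0495 FPKM) and control replicate 5 (0.0527 FPKM).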

How the results depend on the processing

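Over 22 alternatives the log2 difference of CYP24A1 ran from -2.11 to -1.71 and that of PTHLH from -2.09 to -1.61, given as a description because both were chosen by these values. The filter at 5 FPKM removed CYP2R1. The CYP2R1 difference moved to 0.19 after median-ratio scaling (also with the block, or, at 0.19, without PAPA-NONOate replicate 2) and to 0.29 after quantile normalization. VDR stayed negative. Among all tested genes 219 were called higher as deposited, and 790 after median-ratio scaling, 733 after quantile normalization, 383 with library weights, 927 with median-ratio scaling and the block, and 656 with that scaling and without PAPA-NONOate replicate 2. Those called lower numbered 842 as deposited, 449 with the 5 FPKM filter and 1424 with library weights. With 1 library left out they ran from 339 (without control replicate 2) to 1579 (without PAPA-NONOate replicate 5), with 485, 432 and 412 without control replicate 3, 4 or 8 and 528 without PAPA-NONOate replicate 3, and those called higher from 152 to 242. Of the pathway list genes 9 were called higher as deposited, 16 after median-ratio scaling, 19 after quantile normalization, 19 with scaling and the block and 17 with scaling and without PAPA-NONOate replicate 2, and 7 to 9 with 1 library left out. Called lower were 10 as deposited, 3 without the filter, 16 with library weights, and 3 to 20 with 1 library left out: 3 and 4 without control replicate 2 or 4, 6 without control replicate 8 or PAPA-NONOate replicate 4 or 8, and 20 without PAPA-NONOate replicate 5. The causes were not tested.

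Replicate numbers were not taken as pairs in the main fit, since the labels do not state pairs. The correlations of same-numbered deviations were 0.00, 0.29, 0.30, -0.02 and 0.19 for numbers 2, 3, 4, 5 and 8. They do not settle whether the samples were paired. PAPA-NONOate replicates 3, 4 and 8 were each most like the control of their own number, a hint of pairing from the data, while replicates 2 and 5 were not. With the replicate number as a block 213 genes were called higher and 680 lower, and STC2, RAMP1, PRKAR1A, TEK, C1QA and FAR2 among named genes lost their calls while MGP gained one. Of 57 named genes tested outside the set 34 were called as deposited, 16 of them in every alternative in which they were tested. Many were named because they were called, so these counts are no result beside the 9.34% called over all tested genes. CNN1, CYP1A1 and PCSK1, which passed the filter on low values through the treated libraries, are among the 16. So is CYP17A1, which passed it through the controls. CNN1 and CYP1A1 could be tested in only 14 of 22 alternatives. Depth limits what can be said of genes near 0 FPKM, PTH, PTH2R and GC among them.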
